A study of Mus musculus with 8 samples.

Results

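Col10a1 and the genes of the Indian hedgehog and PTHrP loop were followed in the long bones (tibia and femur) of Hyp and wild-type mice. The genes were chosen by name, as every probe set annotated to exactly 1 of 7 symbols (Col10a1, Ihh, Pthlh, Pth1r, Ptch1, Gli1 and Runx3). This gave 9 probe sets of 6 genes, out of 45037 probe sets and 18193 genes on the array. Pthlh, the gene of PTHrP, had no probe set under its name in the annotation used and was not analysed here. Hyp mice, which model X-linked hypophosphatemia, lack the 3′ end of Phex on a C57BL/6 background, and the WT mice are labelled as wild type with no further strain name. All were males of 12 days kept on a standard diet that contained calcium, phosphate and vitamin D. There were 4 arrays of each genotype, and each RNA was made from 2 bone samples of 1 genotype, so a value is an average over the bones of a pool and over all cells in them.

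In the growth plate, chondrocytes divide in columns, stop dividing, enlarge and lay down collagen X, the product of Col10a1, before mineral and bone replace them. Cells that are leaving the dividing pool secrete Indian hedgehog, which binds the receptor Patched 1 and so releases Smoothened and the Gli transcription factors, and Ptch1 and Gli1 are themselves transcribed when the pathway is on. Hedgehog signalling also keeps up PTHrP at the end of the bone, and PTHrP acts through the receptor PTH1R on chondrocytes to delay their enlargement, which closes the loop.

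The sequences just upstream of the start sites show how differently these genes begin, and are given for the gene among them with the largest change, for the ligand and for the receptor that is also a target. Each is the 250 bases before a RefSeq start, 5′ to 3′ on the gene's strand, in GRCm38.p6. Capitals mark a match to a TATA box (TATAAA), a Runx site (ACCACA) or a GLI site (GACCACCCA), searched on both strands.

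Col10a1 (chr10:34389731-34389980, plus strand): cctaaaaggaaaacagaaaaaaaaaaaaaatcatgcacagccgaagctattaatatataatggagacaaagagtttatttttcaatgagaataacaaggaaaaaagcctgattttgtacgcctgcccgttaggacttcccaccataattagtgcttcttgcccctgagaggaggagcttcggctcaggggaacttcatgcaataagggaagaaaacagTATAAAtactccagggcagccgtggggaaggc
Ihh (chr1:74951673-74951922, minus strand): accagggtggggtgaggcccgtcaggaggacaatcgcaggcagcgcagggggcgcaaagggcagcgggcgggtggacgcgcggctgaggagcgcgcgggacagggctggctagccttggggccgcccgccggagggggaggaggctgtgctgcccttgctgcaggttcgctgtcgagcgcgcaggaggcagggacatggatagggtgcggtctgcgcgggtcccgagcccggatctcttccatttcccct
Ptch1 (chr13:63565736-63565985, minus strand): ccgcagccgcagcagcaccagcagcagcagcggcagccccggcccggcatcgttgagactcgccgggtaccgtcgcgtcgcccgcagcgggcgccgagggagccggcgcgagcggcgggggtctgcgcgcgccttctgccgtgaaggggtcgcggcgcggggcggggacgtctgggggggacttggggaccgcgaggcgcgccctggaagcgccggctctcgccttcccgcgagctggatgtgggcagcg

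The Col10a1 window held 1 TATA match, at bases -32 to -27 from the start, and 41.6% of its bases were G or C. The Ihh window was 72.0% and the Ptch1 window 78.4% G or C, and neither held a match to any of the 3 motifs. The Ptch1 window lies inside the annotated gene, which reaches to base 63573460, and no other Ptch1 window was searched. Of 32851 windows of the same length, 12.4% held the TATA letters, 14.0% the Runx letters and 0.225% the GLI letters. Among the members, 5 of 6 had 1 or more windows in the table, 8 in all. In 1 of the Runx3 windows the Runx letters occurred at -134 to -129 and at -126 to -121. These are matches of letters in short windows, and no measurement here bears on binding.

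The deposited values were centred on the median of the 8 arrays for each probe set. A value therefore says how far an array lay from the middle array, on the log2 scale, and levels, detection and the order of levels between genes cannot be read, nor can the labelled tissue be checked by the level of its markers. Array medians lay within 0.0082 of 0, so the arrays had like centres. Medians do not compare spread, and the SD of the difference of 2 arrays ran from 0.168 to 0.311. Skeletal muscle markers, a sign of muscle left on the bone, differed widely between arrays without following genotype: the mean of 10 genes was 2.11 in WT replicate 3, -1.36 in Hyp replicate 2 and between -0.66 and 0.30 on the other arrays. Results are therefore also given without those arrays where this changes a call. Phex, lacking its 3′ end in Hyp mice, fell by 6.67 ± 0.15 (SE, limma adjusted p = 3.75e-09), the check of the labels.

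Of the 9 probe sets, Col10a1 was higher in Hyp bone, and Gli1 and 1 of 3 probe sets of Ptch1 were lower. The other 6 did not pass the threshold, an adjusted p of 0.05 in limma over all probe sets. For comparison, 3.22% of all probe sets were called higher and 3.91% lower, 7.13% in either direction. The genotypes did not overlap at 5 of the 9 probe sets, against 15.5% of all probe sets. The median difference was -0.01 over the 6 genes and 0.025 over all genes, so the genes did not move one way.

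**Figure D1:**
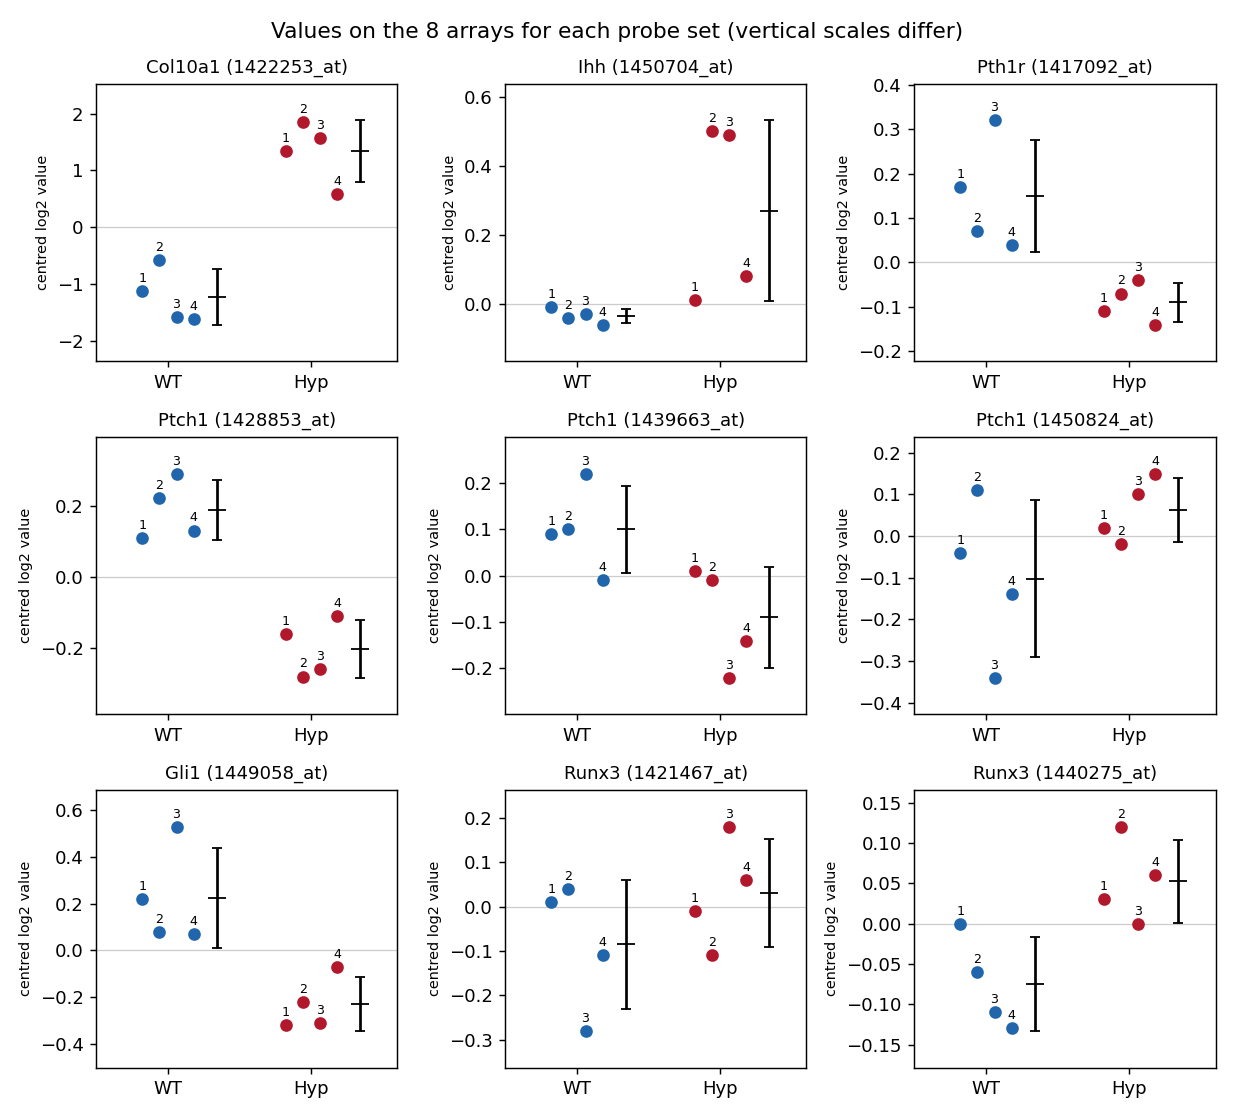
Centred log2 values of the 9 probe sets on each array, with WT in blue, Hyp in red, the replicate number above each point and the mean ± SD (n = 4) beside it. All Hyp arrays lie above all WT arrays for Col10a1 and Ihh and below them for Pth1r, Gli1 and the Ptch1 probe set 1428853_at, and vertical scales differ between panels.

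Col10a1 encodes the short-chain collagen made by hypertrophic chondrocytes and is the usual marker of that stage. Its values in Hyp bone were 1.35, 1.85, 1.57 and 0.58 for replicates 1 to 4, and in WT bone -1.13, -0.58, -1.58 and -1.62. Every Hyp array was above every WT array, and the lowest Hyp value lay 1.17 above the highest WT value. The spread inside each genotype was wide, with SDs of 0.54 in Hyp and 0.48 in WT. The difference was 2.57 ± 0.28 (SE; 95% interval 1.94 to 3.19; limma adjusted p = 0.000487), which is a fold of 5.92 (3.85 to 9.13). Only 2 of the 18193 gene means were higher in Hyp by more. In whole bone, more cells of a type and more RNA per cell cannot be told apart. Leaving out any 1 array gave a difference between 2.40 and 2.82.

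Some chondrocyte markers were also higher in Hyp bone. On gene means, of which 6.54% were called higher, 6.32% lower and 12.9% in either direction over all genes, 4 of 8 such markers passed, all higher: Col2a1, the main collagen of cartilage, Acan, its large proteoglycan, Matn3 and Hapln1. The other 4 did not pass, with Col9a1 at 0.57, Cnmd at 0.33, Matn1 at 0.11 and Epyc at -0.08, and other cartilage genes, described further on, fell. The mean of the 8 was between 0.02 and 0.43 on the Hyp arrays and between -0.28 and -0.04 on the WT arrays. Col10a1 minus this mean on the same array was at 0.57 to 1.42 in Hyp and at -1.59 to -0.51 in WT, a difference of 2.15. That mean of centred values does not measure the share of chondrocytes, whose part in the Col10a1 value was not tested. Hyp replicate 4 was lowest among the Hyp arrays for both Col10a1 (0.58) and the chondrocyte mean (0.02). With 1 array fewer, the 4 called chondrocyte markers became 2 when the array left out was Hyp replicate 2, Hyp replicate 3 or WT replicate 1, and 1 with WT replicate 3 and Hyp replicate 2 both left out. No probe set of Matn3 passed among probe sets.

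Ihh encodes the ligand, Indian hedgehog. Its Hyp values were 0.01, 0.50, 0.49 and 0.08, and its WT values -0.01, -0.04, -0.03 and -0.06. Replicates 2 and 3 of Hyp stood well above the WT arrays, while Hyp replicates 1 and 4 stood just above them, with a gap of 0.03 between the genotypes. The WT arrays were nearly level (SD 0.019) and the Hyp arrays were not (SD 0.26). The difference of 0.31 ± 0.11 (SE; 95% interval 0.06 to 0.56) did not pass (limma adjusted p = 0.134). Its order on the Hyp arrays was not that of Col10a1, which was high in replicate 1 (1.35), where Ihh was at 0.01. The within-array difference of Col10a1 and Ihh was 1.06 on average in Hyp and -1.19 in WT. On gene means, leaving out Hyp replicate 1 gave 0.39 for Ihh and an adjusted p of 0.0355 in limma.

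Pth1r encodes the receptor shared by PTHrP and parathyroid hormone, which osteoblasts carry as well as chondrocytes. Its values were -0.11, -0.07, -0.04 and -0.14 in Hyp, and 0.17, 0.07, 0.32 and 0.04 in WT. All Hyp arrays lay below all WT arrays, by at least 0.09. The difference was -0.24 ± 0.07 (SE; 95% interval -0.40 to -0.08), with a limma adjusted p of 0.073 among probe sets and 0.0351 among gene means, although both rest on the same single probe set. It thus sat at the threshold, and on gene means it missed it without any 1 of the 4 Hyp arrays or WT replicate 1 (adjusted p from 0.0578 to 0.0943). WT replicate 3, the array rich in muscle markers, was the highest, and without it the difference was -0.19 (adjusted p = 0.0475 on gene means and 0.101 on probe sets).

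Osteoblast markers were lower on the same arrays as Pth1r. Of 6 measured besides Phex, 4 were called lower (Sp7, Alpl, Ifitm5 and Col1a2), Col1a1 was called higher and Ibsp was not called. Over all genes, 6.32% were called lower and 6.54% higher. Their mean was between -0.27 and -0.06 in Hyp and between 0.12 and 0.27 in WT. The part of osteoblast number or state in the Pth1r value was not tested. These marker calls, chosen as lists with earlier results known, are no independent evidence of direction, and Col1a1 lost its call without Hyp replicate 2, Hyp replicate 3, WT replicate 1, WT replicate 2 or WT replicate 4.

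Ptch1 encodes Patched 1, at once the receptor for hedgehog ligands and a target of the pathway, and its 3 probe sets did not behave alike. At 1428853_at the values were -0.16, -0.28, -0.26 and -0.11 in Hyp and 0.11, 0.22, 0.29 and 0.13 in WT. The genotypes were apart by 0.22, and the probe set fell by 0.39 ± 0.07 (SE; limma adjusted p = 0.00674), a fold of 1.31. At 1439663_at the values were 0.01, -0.01, -0.22 and -0.14 in Hyp and 0.09, 0.10, 0.22 and -0.01 in WT. Here 3 of the 4 Hyp arrays lay below the lowest WT array and the difference of -0.19 ± 0.07 did not pass (adjusted p = 0.169). At 1450824_at the values were 0.02, -0.02, 0.10 and 0.15 in Hyp and -0.04, 0.11, -0.34 and -0.14 in WT. The arrays overlapped and the difference, of the other sign, was 0.16 ± 0.09 (adjusted p = 0.341). The mean of the 3 lay at -0.14 ± 0.05 and did not pass (adjusted p = 0.109), so the call for Ptch1 rests on 1 probe set. Which transcripts each probe set reads was not examined here, and without WT replicate 3 the called one lay at -0.35 (adjusted p = 0.0119).

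Gli1 encodes the zinc finger factor that is both an effector and a direct target of hedgehog signalling. Its values were -0.32, -0.22, -0.31 and -0.07 in Hyp and 0.22, 0.08, 0.53 and 0.07 in WT. All Hyp arrays were negative and all WT arrays positive, with WT replicate 3 the highest. Gli1 fell by 0.46 ± 0.10 (SE; 95% interval -0.69 to -0.23; limma adjusted p = 0.027), a fold of 1.37, and 3.35% of genes differed by as much or more in either direction. Without WT replicate 3 the difference was -0.36 (adjusted p = 0.0219). Among probe sets the call was lost without Hyp replicate 1, Hyp replicate 2, Hyp replicate 3 or WT replicate 1 (adjusted p from 0.0672 to 0.0777), while on gene means it held with each array left out (0.0106 to 0.0425). Both rest on the same single probe set, so the gene mean is no separate evidence.

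Ihh and Gli1 thus stood on opposite sides of WT in Hyp bone, although the value of Ihh did not pass its test. Relative to Gli1 on the same array, Ihh was at 0.15 to 0.80 in Hyp and at -0.56 to -0.12 in WT. Relative to the mean of Ptch1, Ihh was at 0.05 to 0.61 in Hyp and at -0.19 to -0.05 in WT. These within-array values are a description and carry no test.

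Runx3 encodes a Runt-domain factor that acts with its relatives in chondrocyte maturation and is also made by T, NK and myeloid cells. At 1421467_at its values were -0.01, -0.11, 0.18 and 0.06 in Hyp and 0.01, 0.04, -0.28 and -0.11 in WT. At 1440275_at they were 0.03, 0.12, 0.00 and 0.06 in Hyp and 0.00, -0.06, -0.11 and -0.13 in WT. The genotypes overlapped at both, and the differences of 0.12 ± 0.09 and 0.12 ± 0.06 (SE) did not pass (limma adjusted p = 0.484 and 0.253). The 95% intervals, -0.08 to 0.31 and -0.01 to 0.25, leave room for a rise of up to 1.24-fold and 1.19-fold. Macrophage markers were higher in Hyp bone (7 of 10, list mean 0.19 to 0.36 in Hyp and -0.34 to -0.18 in WT), and of 11 T and NK cell markers 2 were called higher, Cd4 and Gzmb (list mean 0.02 to 0.12 in Hyp and -0.12 to 0.00 in WT). Their part in the Runx3 values was not tested, and the 2 T and NK calls became 1 without Hyp replicate 1, Hyp replicate 3, WT replicate 1, WT replicate 3 or WT replicate 4. The single probe set of Gzmb did not pass among probe sets, and 1 of 2 did for Cd4. For comparison, 6.54% of all genes were called higher.

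The wider hedgehog pathway was examined by gene means, of which 12.9% were called in either direction over all genes. Among 12 measured genes that release or receive the ligand, 2 were higher and 3 lower, with a median of 0.088. Scube3, a secreted protein of the family that helps release lipid-bearing hedgehog, rose by 0.42 ± 0.06 (SE; limma adjusted p = 0.00191), and Scube1 by 0.27 ± 0.07 (adjusted p = 0.027). Disp1, the transporter that exports hedgehog from the cell, fell by 0.45 ± 0.10 (adjusted p = 0.013). The coreceptors Boc and Cdon fell by 0.31 ± 0.07 and 0.25 ± 0.07 (adjusted p = 0.0147 and 0.0474), and Cdon is named here after its values were seen. Not every probe set passed for Disp1 (1 of 2), Boc (2 of 3) and Cdon (1 of 2), and their probe sets with the largest SD lay further from 0, at -0.71, -0.51 and -0.48. The single probe set of Scube1 did not pass among probe sets, so its call holds only among gene means. Scube1 lost its call without Hyp replicate 3, Hyp replicate 4, WT replicate 1, WT replicate 3 or WT replicate 4 (adjusted p from 0.0517 to 0.0762), Cdon with any 1 array left out except WT replicate 3 (0.0579 to 0.117), and Boc without both WT replicate 3 and Hyp replicate 2 (-0.23, adjusted p = 0.0621).

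Inside the responding cell, 2 of 14 measured genes were lower, none was higher and the median was -0.025. This is near the share of all genes called in either direction, 12.9%. Gli2, the main activating factor, fell by 0.31 ± 0.06 (SE; limma adjusted p = 0.00485; 1 of 2 probe sets passed) and Kif7, a kinesin of the cilium that regulates the Gli factors, by 0.29 ± 0.05 (adjusted p = 0.00395). Smo, the transducer Smoothened, lay at -0.18 ± 0.06 (adjusted p = 0.0799), Gli3, mainly a repressor, at -0.12 ± 0.06 (adjusted p = 0.225) and Hhip, a decoy receptor and pathway target, at 0.07 ± 0.06 (adjusted p = 0.493; 1 of 4 probe sets passed). These last 3 were named after their values were seen. Of them, Gli3 is among the 14, while Smo and Hhip belong to the 12 genes that release or receive the ligand. Smo passed without WT replicate 4 (-0.22, adjusted p = 0.0458).

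**Figure D2:**
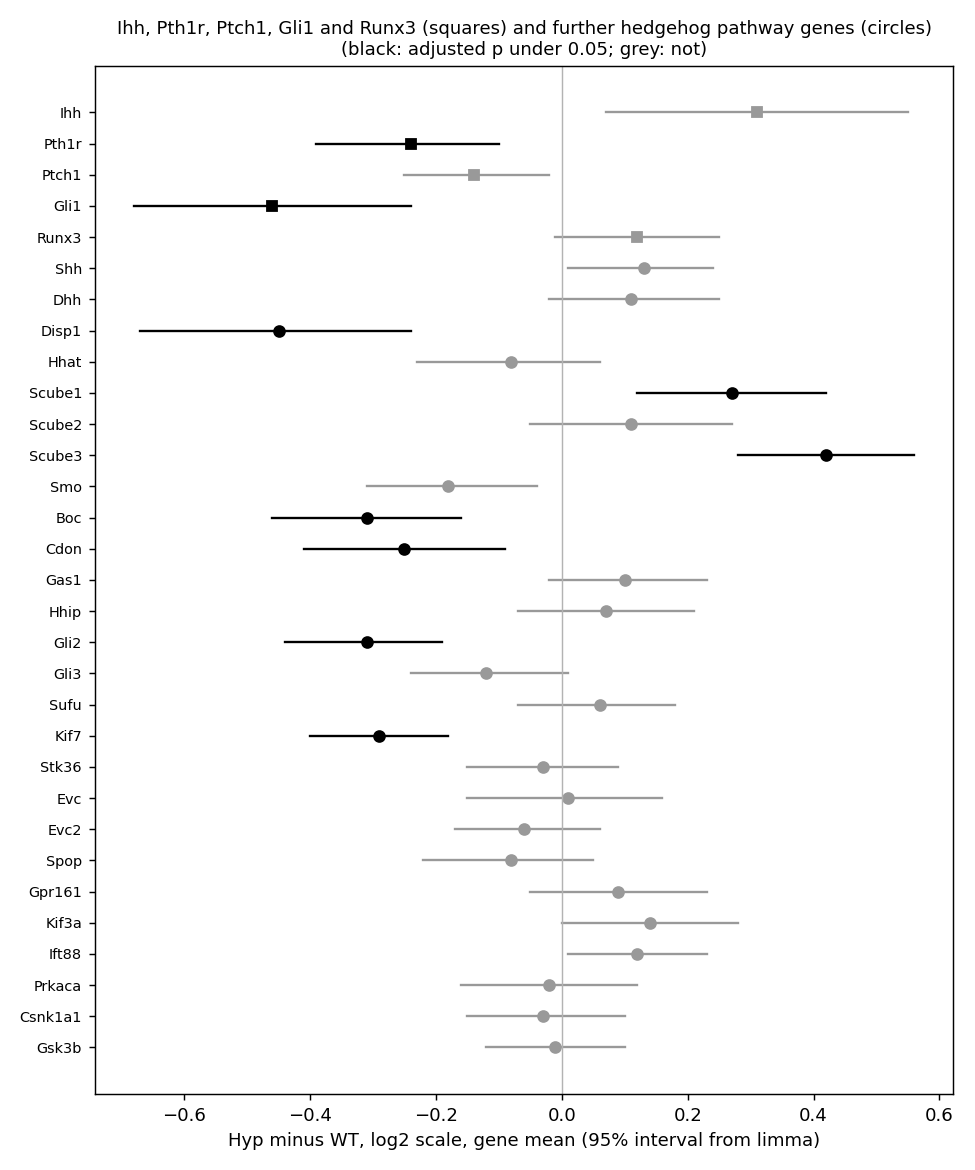
Difference of gene means between Hyp and WT (log2 scale, 4 arrays each) with 95% intervals from limma for Ihh, Pth1r, Ptch1, Gli1 and Runx3 (squares) and 26 further hedgehog pathway genes (circles), in black where the adjusted p is under 0.05. Gli1 at -0.46 and Disp1 at -0.45 are the lowest and Scube3 at 0.42 is the highest.

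Of 28 measured genes that relay PTH and PTHrP receptor signals, 3 were higher and 1 lower, with a median of 0.036. Here too the share called was near that of all genes, 12.9%. Arrb1 and Arrb2, the arrestins that end receptor signalling, rose by 0.40 ± 0.08 and 0.34 ± 0.08 (SE; limma adjusted p = 0.00764 and 0.0156). Slc9a3r1, a scaffold that binds the receptor tail, rose by 0.27 ± 0.06 (adjusted p = 0.014). For Arrb2 1 of 2 probe sets passed, and for Slc9a3r1 2 of 3. Nr4a2, an early response gene of cyclic AMP, fell by 0.76 ± 0.07 (adjusted p = 9.67e-05; 4 of 6 probe sets passed, and the one with the largest SD lay at -1.39). Gnas, the G protein that couples the receptor to cyclic AMP, lay at -0.16 ± 0.09 (adjusted p = 0.246), and Hdac4, which restrains hypertrophy, at 0.01 ± 0.06 (adjusted p = 0.945), a value whose sign changed with the processing, both named after their values were seen.

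The other genes of the hypertrophic stage moved in both directions. Of 17 measured, 3 were higher and 5 lower, and the median was -0.17, while 3 of the 20 listed had no named probe set here. Over all genes, 6.54% were called higher and 6.32% lower. Bmp6, a growth factor of hypertrophic cells, rose by 0.70 ± 0.10 (SE; limma adjusted p = 0.00169). Mmp13, the collagenase of late hypertrophic cartilage and of osteoblasts, rose by 0.52 ± 0.06 (adjusted p = 0.000274) and Tgm2, a transglutaminase, by 0.33 ± 0.06 (adjusted p = 0.00359; 5 of 6 probe sets passed, and the one with the largest SD lay at 0.50). Dlx5, a homeobox factor of hypertrophic cells and osteoblasts, fell by 0.42 ± 0.04 (adjusted p = 0.000182). The other decreases, named after their values were seen, were Bmp2 (0.92 ± 0.16), Panx3 (0.50 ± 0.10), Mef2c (0.43 ± 0.08) and Alpl (0.21 ± 0.05), with adjusted p from 0.00431 to 0.0203, and Alpl lost its call when Hyp replicate 1 or 4 was left out, or likewise WT replicate 1 or 2 (0.0514 to 0.0559). Among probe sets, 1 of 3 passed for Panx3 and 4 of 5 for Mef2c, and the single probe set of Alpl did not pass. Several genes of this list are shared with osteoblasts, whose markers were lower on these arrays, and that share was not tested. Col10a1 relative to the list mean was at 0.65 to 1.96 in Hyp and at -1.70 to -0.56 in WT.

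Genes of dividing chondrocytes and cartilage matrix split. Of 22 measured, 6 were higher and 3 lower, with a median of 0.19, against 6.54% higher and 6.32% lower over all genes. The chondrocyte markers described above are among these genes. Col2a1 rose by 0.78 ± 0.16 (SE; limma adjusted p = 0.00888), with Hyp values of 0.64, 0.74, 0.67 and 0.05 for replicates 1 to 4. Col11a2 and Col11a1, chains of the minor fibrillar collagen, fell by 1.01 ± 0.10 and 0.78 ± 0.06 (adjusted p = 0.000181 and 5.78e-05), and Papss2, which supplies sulfate for proteoglycans, by 0.41 ± 0.06 (adjusted p = 0.000996; -0.66 at the probe set with the largest SD). The genotypes did not overlap for these 4 genes, nor for 19.2% of all genes, whereas they did for the other 5 that were called higher, Comp, Hapln1, Acan, Snorc and Matn3. No probe set of Comp or Matn3 passed among probe sets, and 2 of 4 did for Hapln1. Comp lost its call with any 1 array left out except Hyp replicate 4 or WT replicate 4 (limma adjusted p from 0.0522 to 0.119). It also lost it with array weights (0.0512) and with a robust prior (0.0839). The 6 became 3 when either Hyp replicate 2 or Hyp replicate 3 was left out, and 2 when WT replicate 1 was, or WT replicate 3 and Hyp replicate 2 together. The highest count with an array left out was 7. Of 9 genes of resting and articular chondrocytes, Sfrp5 alone was called, at 0.21 ± 0.06 (adjusted p = 0.0461), and it lost its call with any 1 array left out except WT replicate 4 (adjusted p from 0.0526 to 0.101), while its probe set with the largest SD lay at 0.33.

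**Figure D3:**
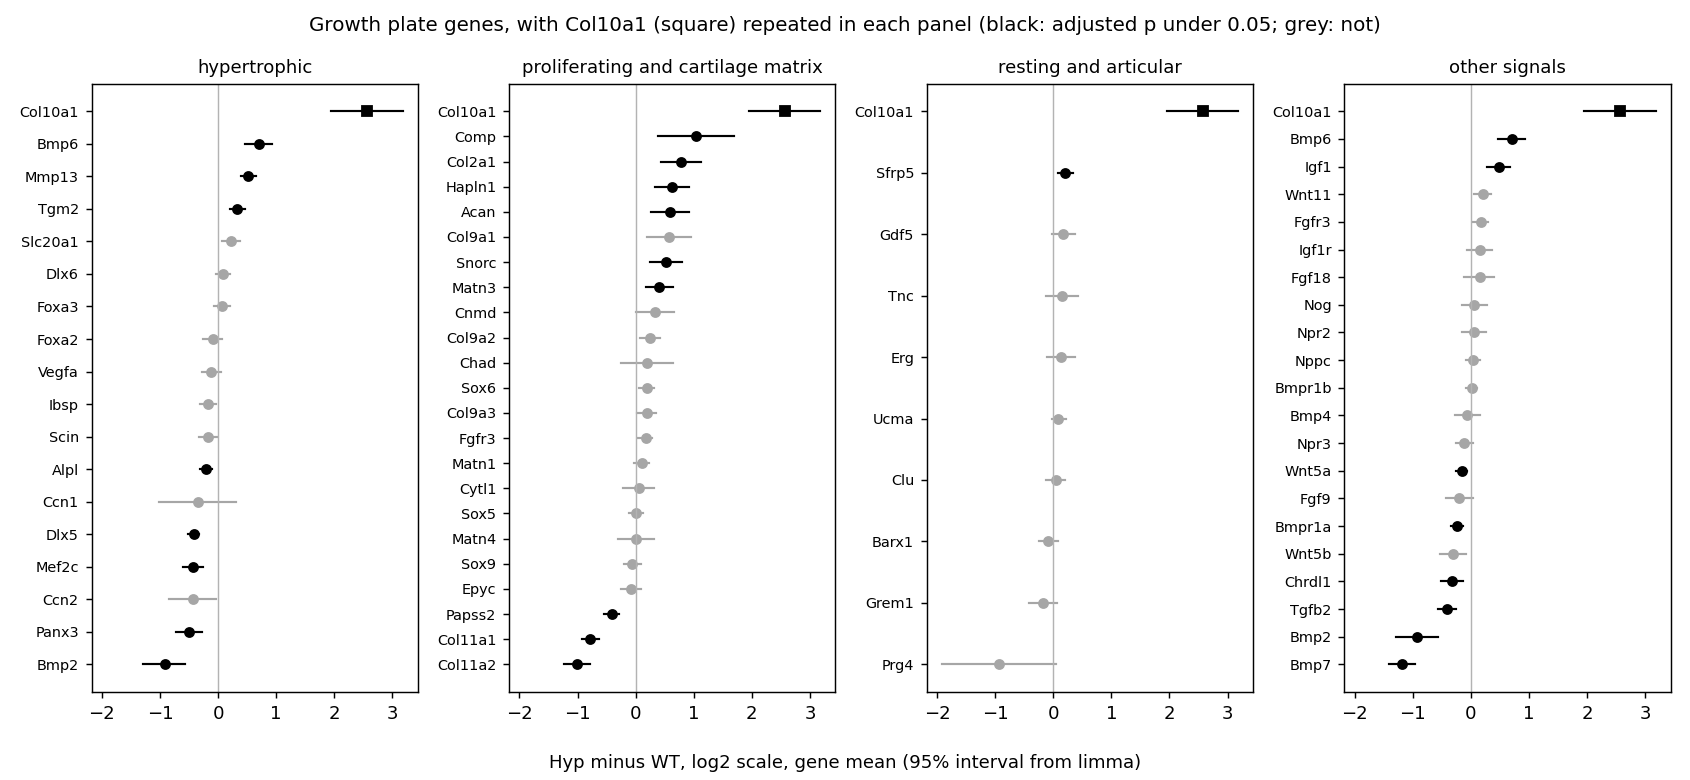
Difference of gene means between Hyp and WT (log2 scale, 4 arrays each) with 95% intervals from limma in 4 lists of growth plate genes, in black where the adjusted p is under 0.05. Col10a1, repeated at the top of each panel at 2.57, lies above every other gene shown, the next being Comp at 1.04.

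Among 20 other signals of the growth plate, 2 were higher and 6 lower, with a median of -0.022, against 6.54% higher and 6.32% lower over all genes. Bmp7 and Bmp2, ligands of the BMP pathway, fell by 1.19 ± 0.10 and 0.92 ± 0.16 (SE; limma adjusted p = 5.81e-05 and 0.00447), and Tgfb2 fell by 0.41 ± 0.07 (adjusted p = 0.00372), while Bmp6 rose, as above. Fgfr3, the receptor that slows chondrocyte division and restrains Ihh, lay at 0.17 ± 0.06 (adjusted p = 0.0787, named after its values were seen). Of 9 measured Runx relatives and partners, Tle1, a corepressor, rose by 0.22 ± 0.04 (adjusted p = 0.00895), and Cbfb, the shared subunit of Runx factors, and Tle3 fell by 0.20 ± 0.05 and 0.20 ± 0.06 (adjusted p = 0.0188 and 0.0467). Tle2, which overlapped between the genotypes and is named after its values were seen, was the other gene called higher (0.51 ± 0.14, adjusted p = 0.0427). The 2 higher calls became 1 with any array left out except WT replicate 3, and no probe set of these genes passed among probe sets. Cbfb lost its call without Hyp replicate 1, Hyp replicate 3 or WT replicate 1, and Tle3 without any array except Hyp replicate 2 and WT replicate 2.

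Counting each gene once, the 8 lists held 131 genes, of which 127 were measured, 18 were higher and 21 lower. Over all genes, 6.54% were called higher and 6.32% lower. The lists were drawn up with earlier results of these data known, so these counts carry no test.

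**Figure D4:**
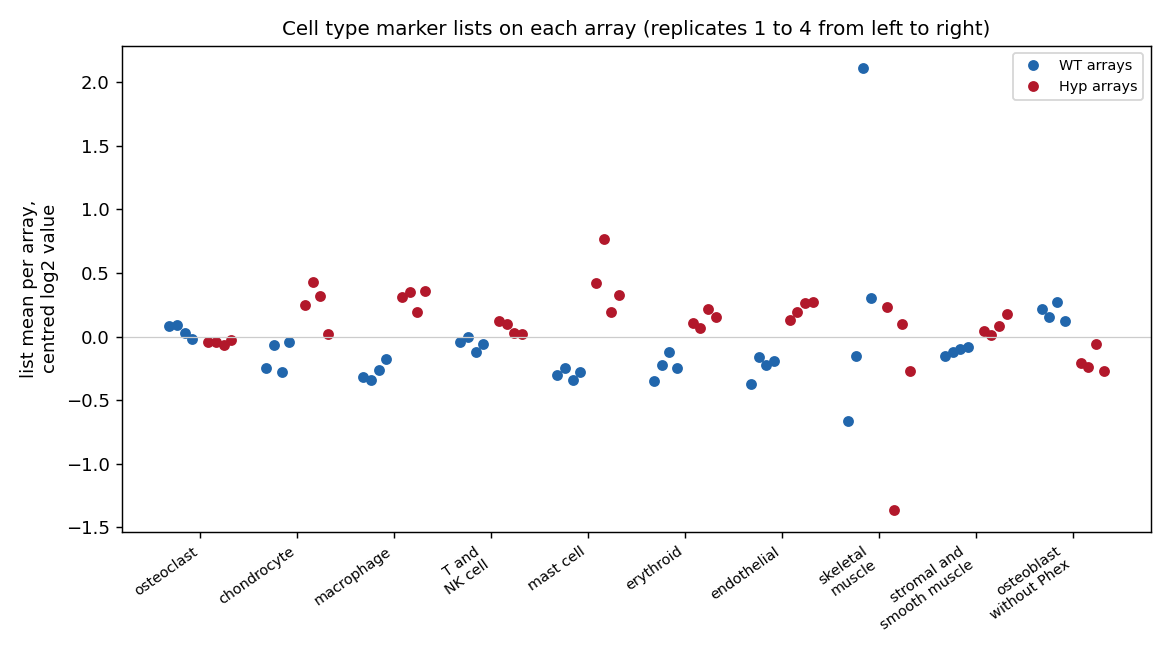
Mean of each cell type marker list on each array (centred log2 values, WT in blue, Hyp in red). The genotypes do not overlap in any list shown except skeletal muscle, which spans -1.36 to 2.11.

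Markers of other cell types also differed between the genotypes on these arrays, where 6.54% of all genes were called higher and 6.32% lower. Of 8 endothelial markers all 8 were called higher (list mean 0.13 to 0.27 in Hyp and -0.37 to -0.16 in WT), of 6 mast cell markers 4 (0.19 to 0.77 and -0.34 to -0.25) and of 6 erythroid markers 5 (0.07 to 0.22 and -0.35 to -0.12). Of 8 osteoclast markers 1 was lower, Dcstamp, which became none without any 1 Hyp array from replicates 2 to 4 or WT replicate 1 and 2 lower markers without WT replicate 3. Further, of 7 stromal and smooth muscle markers, cells in which Gli1 is also known, 4 were higher and Pdgfra was lower. Their part in the values of Col10a1, Gli1 or Ptch1 was not tested.

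The genes nearest to Col10a1 over the 8 arrays, by the root mean square difference of gene means, were Cbr2 (0.54), Ctsw (0.54), Prmt8 (0.61), Cma1, the mast cell chymase (0.65), and Fcrls (0.67). All 5 were higher in Hyp bone, by 1.47 to 2.02, and none is a cartilage gene of the lists. The genes nearest to Ihh were Th (0.10), Sp8 (0.10), Lypd6b (0.11), Bcl6b (0.11) and Eps8l1 (0.11), of which Bcl6b passed (0.35 ± 0.09, SE; limma adjusted p = 0.023). The Bcl6b call was not stable: dropping WT replicate 1 removed it (limma adjusted p = 0.0682), as did dropping Hyp replicate 2 (0.0605). Dropping WT replicate 4 gave 0.0587, and dropping Hyp replicate 2 together with WT replicate 3 gave 0.0675. Lypd6b (0.34, adjusted p = 0.0113) and Eps8l1 (0.51, 0.0215) passed once Hyp replicate 1 was dropped. The root mean square difference favours genes with changes of like size and says nothing of shared control.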

How the data were processed

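RNA of 8 long bone pools was measured on microarrays, 4 of Hyp and 4 of WT mice. The deposited log2 values were made by the authors with RMA (version not given in the sources used here), per the submitters' processing notes. Log base 2 follows from RMA and is not stated. Each probe set's median over the 8 arrays was 0 within 5.0e-07, a centring that no label records. The number of arrays limits the precision, and the median SE was 0.081.

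The table held 45101 probe sets, and its 64 control sets took no part. The platform annotation gave 1 symbol for 34945, several for 932 and none here for 9160, and gene IDs of 34741 were matched to RefSeq symbols (GRCm38.p6). Genotypes were compared by limma (version 3.58.1 under R 4.3.3, with lmFit and eBayes, two-sided, Benjamini-Hochberg over all 45037 probe sets, threshold 0.05), and likewise on 18193 gene means. The labels call the 4 pools of a genotype separate samples and do not say how many animals each came from, so p-values measure the spread between these pools.

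Members and lists were chosen with earlier results of these data known. Named were all member probe sets, up to 4 genes per list with the smallest p among those called with no overlap, and the 5 genes nearest to Col10a1 and to Ihh. The fit was tested on simulated data with log2 changes of 0.5, 1 and 2. It recovered 39 of 67, 65 of 67 and 66 of 66 of them, with 5 false calls. Smaller changes were not simulated. Alternatives were the replicate block, 2 normalizations, array weights, a robust prior, a threshold of 0.01, a filter on SD, other choices of probe sets, and leaving out arrays. Leaving out WT replicate 3 and Hyp replicate 2 together was chosen after seeing the data. Promoter windows are from RefSeq (GRCm38.p6). Gli1 had none in that table.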

Additional observations from a re-analysis of the deposited data

Results flagged for a closer look

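In 4 of 148 groups of 4 arrays checked, 1 array lay far from the other 3. Many of the groups were of genes chosen by their values, so the 1 in 20 of unselected groups is no yardstick. Col2a1 was at 0.05 in Hyp replicate 4, against 0.64 to 0.74 on the other Hyp arrays. Panx3 was at -0.52 in Hyp replicate 4, against -0.21 to -0.15. Cbfb was at -0.05 in Hyp replicate 2, against -0.16 to -0.15. Col1a1 was at -0.01 in WT replicate 3, against -0.31 on the other WT arrays. No probe set of Col10a1, Ihh, Pth1r, Ptch1, Gli1 or Runx3 met this rule.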

How the results depend on the processing

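Hdac4, at 0.01, lay at 0.00 with arrays centred on their medians, between -0.04 and 0.06 with 1 or 2 arrays left out (-0.01 without Hyp replicate 1 or Hyp replicate 3, -0.04 without WT replicate 2) and at -0.26 by its probe set of the largest SD, and no other result changed sign. Col10a1 lay between 2.28 and 2.98 and passed under each of them. With a threshold of 0.01, Gli1 (-0.46, limma adjusted p = 0.0139) and Pth1r (-0.24, 0.0351) did not pass, 458 probe sets were higher and 844 lower, and 407 genes were higher and 618 lower. With the probe set of the largest SD per gene, Ptch1 lay at -0.39 and passed (adjusted p = 0.00652) and Pth1r did not (-0.24, 0.0681), while 10 other named genes that had passed moved by over 1.5 times, among them Col1a1 (1.08) and Col1a2 (-1.06). Without WT replicate 3 and Hyp replicate 2, Pth1r lay at -0.19 (0.0745). Array weights gave 2206 higher probe sets, and the filter on SD 965. Leaving out 1 array gave 625 to 2125 higher and 1055 to 1975 lower probe sets, 605 to 1437 higher genes, 0.23 to 0.39 for Ihh and -0.28 to -0.19 for Pth1r. The lowest counts of higher probe sets and genes came without WT replicate 1. Same-numbered samples correlated between -0.044 and 0.262 in their deviations, and the other pairs of a Hyp and a WT sample between -0.274 and 0.199. These values do not settle whether the numbers pair the samples, and the main fit did not use the numbers. With the replicate block, 1267 probe sets were higher and 1723 lower, 1015 genes were higher and 1063 lower, and no call of Col10a1, Ihh, Pth1r, Ptch1, Gli1 or Runx3 changed. It took the calls of Scube1 (adjusted p = 0.0683), Sfrp5 (0.0567), Tle3 (0.0771) and Cdon (0.0891), and of Acan (0.0627), Comp (0.0746), Matn3 (0.0623) and Snorc (0.0538). The same 2 genes, Col2a1 and Hapln1, thus stayed higher among the chondrocyte markers and among the cartilage matrix genes. Of 65 other named genes, 37 kept their sign and their side of the threshold under all alternatives. Apart from the settings named, the cause of these changes was not tested. A filter on level needs levels and was not run.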
